A study of Mus musculus with 6 samples.

Results

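A set of 50 genes of the mitotic spindle and the G2/M phase was followed through E, M and RE cells, the successive stages of EpH4, a line of mouse mammary epithelial cells. The genes were chosen by name as a set of mitotic kinases, cyclins, checkpoint proteins, kinetochore and spindle proteins, and all 50 listed genes had a row among the 17428 genes of the deposited table. *Cdk1* is listed there under its older symbol *Cdc2a*. E cells were kept in normal medium with serum and insulin and were never given TGFβ1, M cells had been kept with TGFβ1 for 7 days, and RE cells were M cultures returned to normal medium for another 4 days. Each stage has 2 libraries from biological replicates, 6 in all, made from bulk RNA of whole cultures of 1 cell line. The results therefore describe this line in culture and do not separate cycling from resting cells.

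A cell enters mitosis when cyclin B and its partner kinase Cdk1 become active, and leaves it when the anaphase-promoting complex has marked cyclin B and securin for degradation. In between, Aurora and Polo-like kinases build the spindle, the kinetochores attach the chromosomes to its microtubules, a checkpoint holds back anaphase until every chromosome is attached, and the central spindle guides the cleavage of the cell. Transcripts of these genes accumulate as cells pass from S phase into G2 and mitosis and are low in resting cells, and several, such as *Mki67* and *Top2a*, are widely used as markers of proliferation. Repression of such promoters in resting cells by the DREAM complex, and their activation by B-Myb and FoxM1, acts largely through a short promoter element called CHR, often with CCAAT boxes bound by NF-Y upstream of it.

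The promoter letters that these genes share are shown first because the CHR and the CCAAT box are the elements through which G2/M genes are known to be switched together. RefSeq promoter windows from 250 bases before to 50 bases after the start (build GRCm38.p6) were found for 42 of the 50 genes, and 8 genes had no entry (*Ccna2*, *Cdc25c*, *Foxm1*, *Aurkb*, *Incenp*, *Tpx2*, *Dlgap5* and *Smc4*). The letters TTTGAA of the CHR, or TTCAAA on the other strand, stood in 30 of the 42 windows (71.4%), against 18.1% of all 27018 RefSeq promoter windows and 12.5% of the 10563 windows of genes in the table. Counted only where the match starts no more than 50 bases before the start site or lies after it, the share was 61.9% of the 42 and 4.92% of all windows. CCAAT, or ATTGG on the other strand, stood in 33 of the 42 (78.6%, against 37.9% of all windows), and 24 of the 42 held at least 2 of them (57.1%, against 12.2%). Both elements stood together in 26 of the 42 windows (61.9%, against 7.12%). Matches to the CHR letters and to the CCAAT letters overlapped in 1 of the 42 windows. The 50 genes are not alone in this among mitosis genes. Of 73 other mitosis genes with a window, from the wider list described below, 41.1% held the CHR letters and 56.2% the CCAAT letters. Both stood together in 31.5% of those 73. Of 41 genes of S phase with a window, which share the proliferating cells but act in DNA replication, 9.76% held the CHR letters and 61.0% the CCAAT letters. These are matches of letters and not measured binding sites. The 6 windows below end at the base before the start site and are read 5′ to 3′ in the direction of transcription, with the CHR and CCAAT letters of either strand in capitals. *Top2a*, *Ube2c*, *Cdk1* and *Mki67* are shown because they hold both elements, and *Gtse1* and *Cdc25b* because the first was the only gene of the 50 to pass the 2-fold call and the second was the only one whose mean level was lowest in M and highest in E. The windows of these last genes hold neither TTTGAA nor TTCAAA, and other spellings of the element were not searched. In the *Ube2c* window a CCAAT and an ATTGG overlap and were counted separately.
Top2a (chr11:99024190-99024389, minus strand): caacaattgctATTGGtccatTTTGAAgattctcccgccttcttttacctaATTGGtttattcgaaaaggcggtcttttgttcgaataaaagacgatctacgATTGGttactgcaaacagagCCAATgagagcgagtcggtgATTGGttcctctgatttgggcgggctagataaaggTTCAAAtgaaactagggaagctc
Ube2c (chr2:164769729-164769928, plus strand): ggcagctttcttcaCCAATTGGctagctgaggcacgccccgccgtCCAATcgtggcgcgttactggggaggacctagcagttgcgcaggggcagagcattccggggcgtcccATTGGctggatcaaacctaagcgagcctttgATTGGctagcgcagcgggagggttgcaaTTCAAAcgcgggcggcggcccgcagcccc
Cdk1 (chr10:69352913-69353032, minus strand): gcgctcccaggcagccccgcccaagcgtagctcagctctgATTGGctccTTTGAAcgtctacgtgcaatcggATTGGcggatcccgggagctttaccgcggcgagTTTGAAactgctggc
Mki67 (chr7:135716380-135716579, minus strand): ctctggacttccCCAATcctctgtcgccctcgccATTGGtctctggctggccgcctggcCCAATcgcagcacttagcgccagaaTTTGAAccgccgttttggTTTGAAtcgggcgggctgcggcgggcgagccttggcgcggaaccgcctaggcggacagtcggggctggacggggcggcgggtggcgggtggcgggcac
Gtse1 (chr15:85859587-85859706, plus strand): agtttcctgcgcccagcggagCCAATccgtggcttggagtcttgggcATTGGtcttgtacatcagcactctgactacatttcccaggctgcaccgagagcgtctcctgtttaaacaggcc
Cdc25b (chr2:131186828-131186947, plus strand): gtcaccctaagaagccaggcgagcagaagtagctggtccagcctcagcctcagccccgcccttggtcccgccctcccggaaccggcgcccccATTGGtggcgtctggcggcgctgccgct

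The table gives for each gene and library a coverage value, the sequenced bases summed over the gene. The libraries hold between 35782513 and 47928557 reads' worth of 50 bases. Values are given here in ppm, bases on the gene per megabase of the library's coverage after TMM normalization, a scaling that evens out the bulk of the genes, with factors between 0.871 and 1.12. All 50 genes passed the filter of at least 500 bases in at least 2 libraries, as did 13893 genes in all, and they were tested with limma on log2(ppm + 0.1) with p-values adjusted over those 13893 genes. The SE is the standard error of the log2 fold change. A gene is called changed at a fold change above 2 and an adjusted p below 0.01, and the lower bar of 1.5-fold with the same adjusted p is given beside it. A positive log2 fold change stands for a higher level in the later stage, that is, M over E in E vs. M and RE over the other stage in both remaining comparisons. The 3 comparisons share libraries, so a low value of a gene in M pushes E vs. M and M vs. RE in opposite directions. Among the cell type markers, those of mammary luminal epithelium summed to between 3010 and 3481 ppm in the E and M libraries and between 1281 and 1407 ppm in the RE libraries. The sum hides that 4 of the 8 luminal markers tested were called lower in M than in E, against 8.39% of all genes. The median log2 fold change over the 8 was −0.72, while *Krt7* alone gave between 1372 and 1586 ppm in the E and M libraries. In RE, 5 of the 8 were called lower than in E, against 3.17% of all genes. The basal list summed to 375 and 306 ppm in E, 787 and 893 in M and 501 and 499 in RE. *Krt14* gave most of the M sums (666 and 755 ppm), while *Trp63* was highest in RE (173 and 158 ppm, against 44.7 and 54.9 in M). The fibroblast list summed to 70.9 and 70.1 ppm in E, 679 and 580 in M and 439 and 378 in RE. *Col1a1* gave most of its M sums (555 and 438 ppm). *Pdgfra* was highest in RE (92.2 and 76.1 ppm, against 29.9 and 33.2 in M). All 4 fibroblast markers tested were called higher in RE than in E, against 6.20% of all genes. The sums of the leukocyte list lay between 6.89 and 37.1 ppm and those of the endothelial list between 0.370 and 2.73 ppm. Both were highest in M. *Csf1r* carried the leukocyte peak, at 1.55 and 1.27 ppm in E, 25.8 and 29.9 in M and 2.08 and 1.45 in RE. *Cdh5* carried the endothelial peak, at 2.33 and 2.07 ppm in M and at most 0.0910 in E and RE. *Ptprc*, which marks leukocytes, was at most at 0.0781 ppm. The adipocyte list stayed at or below 0.163 ppm. The luminal, basal and fibroblast lists differ between the stages, the basal and fibroblast lists with the highest sums in M, and their part in those results was not tested.

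RE cells had the least coverage on mitotic genes. As deposited, the 50 genes together took 1.22% and 0.993% of the coverage in the E libraries, 1.17% and 1.12% in the M libraries and 0.824% and 0.949% in the RE libraries, so that both RE libraries lay below the others and the M libraries fell between those of E. After TMM scaling the same sums were 1.09% and 0.925% in E, 1.35% and 1.23% in M and 0.808% and 0.920% in RE, with both M libraries above the others. The place of M above E thus depends on the scaling: the median log2 fold change of the 50 in E vs. M was 0.31 with TMM and 0.0064 with library totals. On the TMM scale, the mean levels ran RE below E below M in 27 of the 50 genes, RE below M below E in 12, E below RE below M in 10, and M below RE below E in 1, *Cdc25b*. In bulk RNA a smaller share of cells in G2 and mitosis cannot be told apart from less of these transcripts in each such cell.

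**Figure D1:**
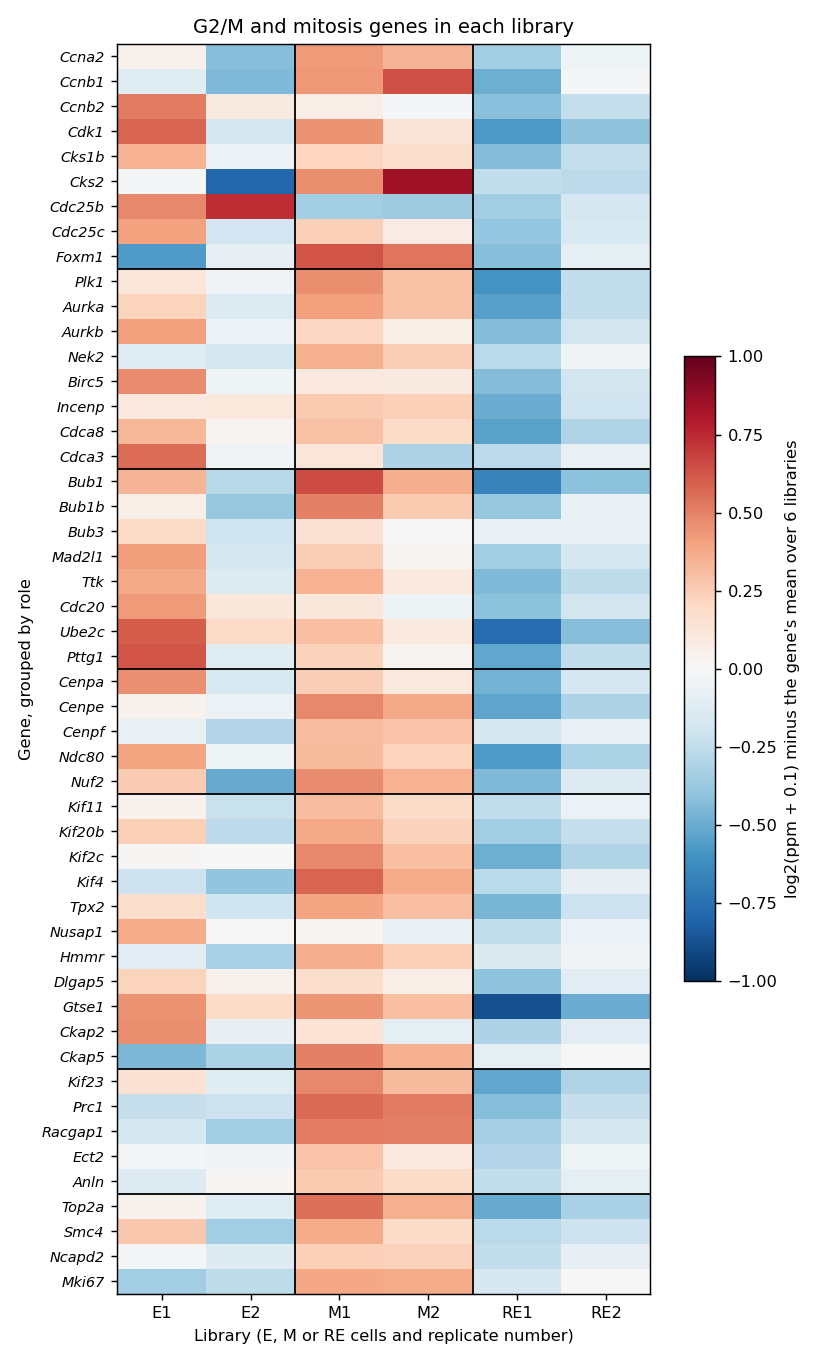
Each row is 1 of the 50 genes, grouped by role, and each column 1 of the 6 libraries; the colour gives the log2 level relative to the gene's mean over the libraries. The M columns are mostly above the mean and the RE columns mostly below it, while the E1 column lies above the E2 column in 43 of the 50 rows.

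The replicates differed in these genes as a block. The first E library lay above the second in 43 of the 50 genes, by a median of 0.34 on the log2 scale, where the first was higher in 51.5% of all genes tested. The second RE library lay above the first in 49 of 50 (median difference 0.21), and the first M library above the second in 48 of 50 (median 0.13). The difference between the E libraries is thus as large as the median difference between E and M described next. With 2 libraries per stage this spread limits every comparison below, and values with a library left out are given where they change a call.

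Levels per kilobase of transcript (ppm per kb, mean of the libraries of a stage) allow the 50 genes to be compared with each other. They ran from 1.61 to 231 in E with a median of 44.1, from 3.42 to 326 in M with a median of 51.1, and from 1.73 to 179 in RE with a median of 33.1. *Top2a*, the topoisomerase that untangles sister chromatids, was highest in every stage, at 231 ppm per kb in E, 326 in M and 179 in RE, followed in E and M by the condensin subunit *Smc4* (175 and 213). *Cks2*, a small Cdk-binding protein, was lowest in every stage, and *Ccnb1*, cyclin B1, was the next lowest at 2.54, 4.49 and 2.61 ppm per kb. Those low levels sit on genes with near-identical copies. Of the 50-base windows of the *Ccnb1* transcript, 42.1% are also found in another annotated gene, mostly the processed pseudogene *Ccnb1-ps*, and 29.7% of those of *Cks2*, so their coverage is uncertain where reads with several matches were dropped. *Prc1* shares 26.6% of its windows, mostly with its neighbour *Rccd1*, *Ube2c* 17.8%, mostly with *Tnnc2*, and *Kif4* 16.2%, mostly with *Pdzd11*. In all, 8 of the 50 genes share more than 10% and 38 share at most 5%.

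**Figure D2:**
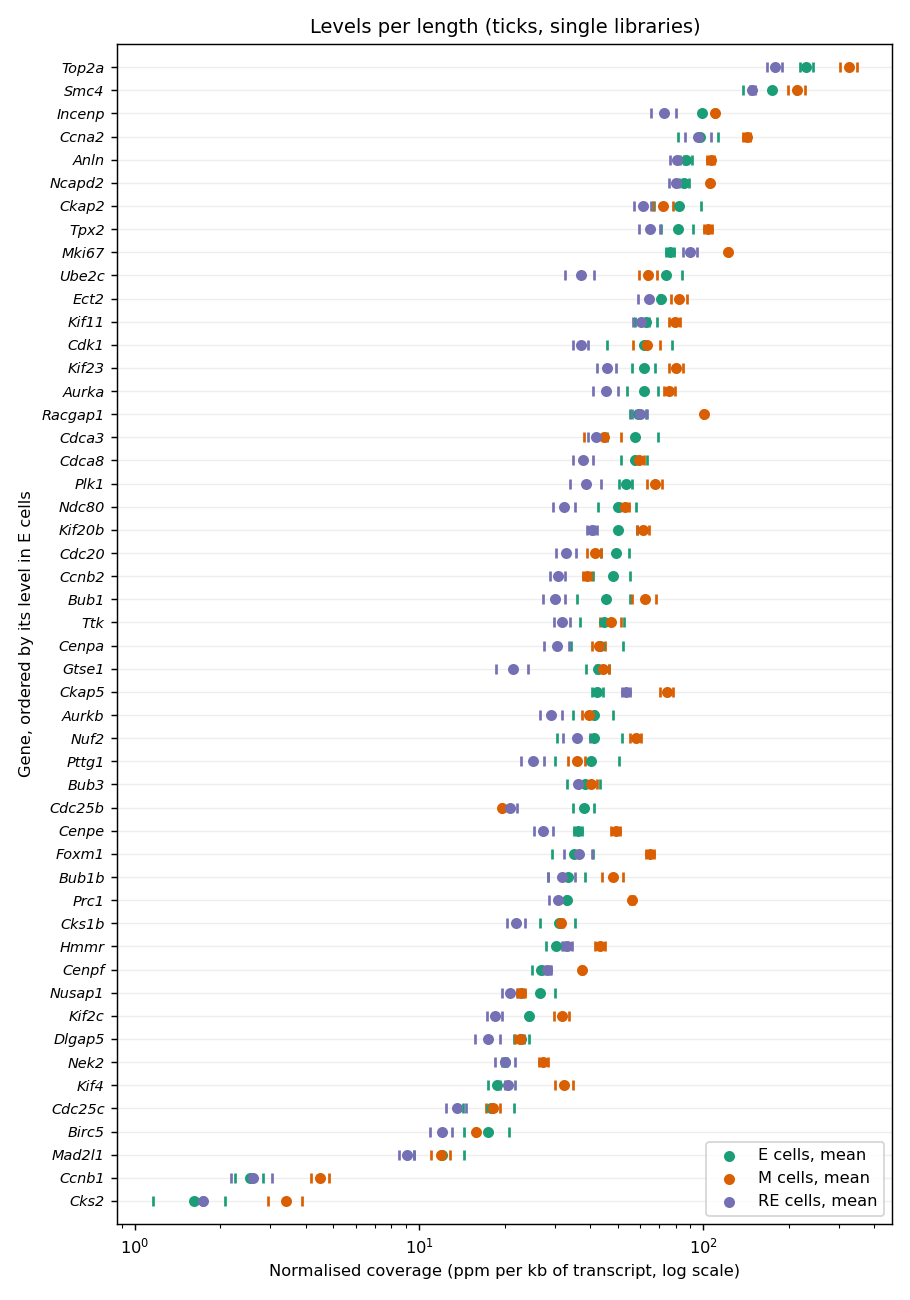
Coverage per kilobase of transcript (ppm per kb, log axis) of the 50 genes, ordered by their level in E cells; dots are stage means and ticks single libraries. Levels span from 1.61 (*Cks2*) to 231 ppm per kb (*Top2a*) in E cells, and the RE dot lies to the left of the M dot in every gene but *Cdc25b*.

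In E vs. M, no mitotic gene reached the 2-fold call in either direction, where 8.58% of all genes tested, here called the background, were called higher in M and 8.39% lower. At an unadjusted p below 0.05, 17 of the 50 were higher in M (34%, against 25.9% of all genes) and 1 was lower (2%, against 25.1%). At 1.5-fold, 6 of 50 were called higher in M (12% of them, background 12.7%), namely *Foxm1*, *Kif4*, *Ckap5*, *Prc1*, *Racgap1* and *Mki67*, and 1 lower, *Cdc25b* (2%, background 11.1%). The share called higher was thus at the background. The median log2 fold change of the 50 was 0.31, against 0.001 over all genes. Of the 50 estimates, 39 were above 0 and 22% below it, where 49.9% of all genes were below. With library totals, 26 of the 50 were above 0. The M libraries were both higher than either E library in 27 genes (54%, background 35.5%) and below them in 2, *Cdc25b* and *Ccnb2* (4%, background 35.0%), and the stages overlapped in the other 21. The count of 6 called higher depended on the fit. It was 0 when any 1 of the M or RE libraries was left out, when only the E and M libraries were fitted, or with scaling by library totals, 15 without the first E library and 6 without the second, 4 without the filter on low values, and 5 after correction for trends on GC content and transcript length. *Cdc25b* was not called at 1.5-fold when the first or the second M library was left out. Calls over all genes moved with the fit too. At 2-fold, 1192 of all genes were called higher in M. The number was 945 with only the E and M libraries, 802 with library totals and 1171 after correction for GC content and transcript length. Scaling by library totals alone shifts the median of all genes to −0.29 in this comparison, to 0.18 for M vs. RE and to −0.08 for E vs. RE. The median of the 50 then stood 0.30 above that of all genes in E vs. M, where it stood 0.31 above with TMM. Scaling moves all genes nearly alike, so that difference could hardly change with it. After the correction for GC content and length the median was 0.17, which is 0.15 above that of all genes, and without the second E library it was 0.13, or 0.17 above.

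In M vs. RE, nearly all of the 50 genes had lower estimates in RE. The median log2 fold change was −0.55, against −0.02 over all genes, and 49 of the 50 estimates were below 0 (98%), against 51.2% of all genes. Both RE libraries lay below both M libraries in 47 of the 50 (94%, background 40.2%), and above them in 0 (background 37.9%). The stages overlapped only in *Cdc25b*, *Cdca3* and *Nusap1*. Few of these differences passed the calls. *Gtse1* fell by more than 2-fold (1 of 50 or 2%, background 4.79%) and none of the 50 was called higher (background 8.08%), although 38 were lower (76%, against 20.7% of all genes) and 0 higher (against 22%) at an unadjusted p below 0.05. At 1.5-fold, 8 were called lower (16%, background 7.08%), namely *Gtse1*, *Prc1*, *Top2a*, *Cenpe*, *Kif23*, *Plk1*, *Kif2c* and *Racgap1*, and 0 higher (background 9.45%). That count of 8 depended on the fit, with 23 genes when only the M and RE libraries were fitted or libraries were weighted by quality, 23 and 20 without the first or the second E library, 16 after correction for GC content and transcript length, 5 without the filter on low values, 2 with scaling by library totals, and 0 without any 1 of the M or RE libraries. Over all genes the calls moved as well. At 2-fold, 666 of all genes were called lower in RE. The number was 908 with only the M and RE libraries, 951 with weighted libraries and 500 with library totals. After correction for GC content and transcript length it was 755. The median difference from all genes was −0.53 with TMM and −0.52 with library totals. A change of scaling moves all genes nearly alike, so this pair cannot show that the difference is steady. Without the first or the second RE library it was −0.42 and −0.63, and without the first or the second M library −0.46 and −0.60.

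In E vs. RE, most of the 50 genes had lower estimates in RE than in the E cells from which the cultures had started. The median log2 fold change was −0.38, against 0.01 over all genes, and 40 of 50 estimates were below 0 (80%, against 49.5% of all genes). Both RE libraries lay below both E libraries in 29 genes (58%, background 32.5%) and above them in 2, *Ckap5* and *Mki67* (4%, background 34.2%), and the stages overlapped in 19. *Gtse1* was again the only gene called lower at 2-fold (2%, background 3.17%), and none was called higher (background 6.20%). At an unadjusted p below 0.05, 21 were lower (42%, against 19.7% of all genes) and 1 was higher (2%, against 23.7%). At 1.5-fold, *Cdc25b*, *Ube2c* and *Gtse1* were called lower (6%, background 4.73%) and 0 higher (background 8.31%). The first E library carries much of the difference: without it the median was −0.16, and without the second E library it was −0.51, with 20 genes called lower at 1.5-fold. At 2-fold, 440 of all genes were called lower in RE, against 487 after correction for GC content and transcript length. With only the E and RE libraries fitted, 157 were. Of the 50, 5 were called lower at 1.5-fold after correction for GC content and transcript length. The count was 0 when any 1 of the M or RE libraries was left out or when only the E and RE libraries were fitted.

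**Figure D3:**
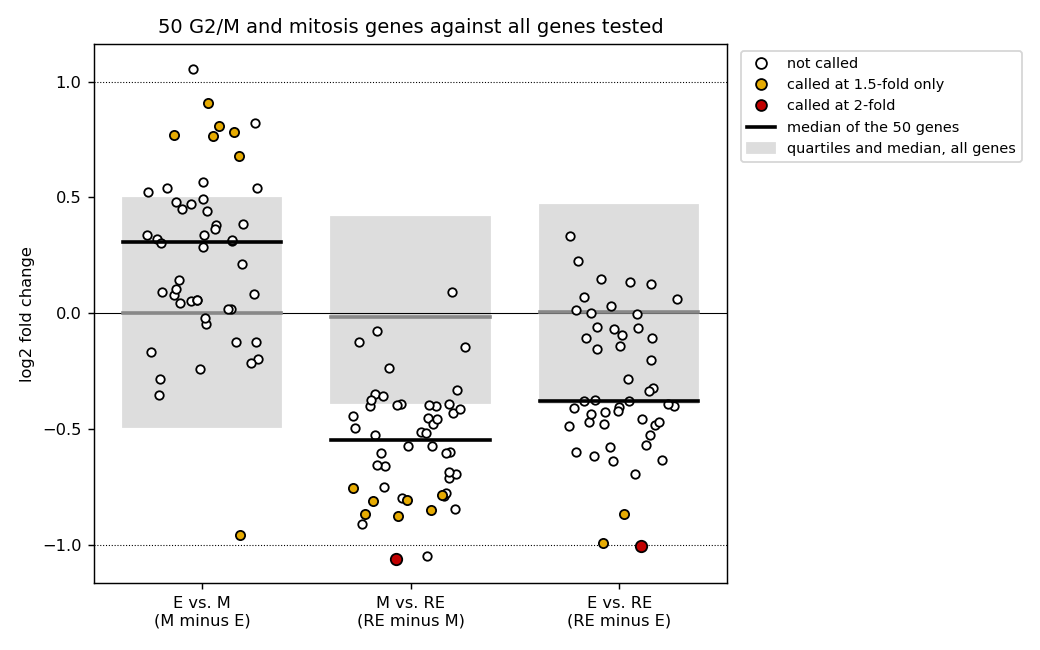
Each point is the log2 fold change of 1 of the 50 genes, by comparison (x axis), coloured where it was called; black lines are medians of the 50, and grey boxes and lines the quartiles and median of all genes tested. In M vs. RE 49 of the 50 points lie below 0, while in E vs. M 39 lie above 0 and in E vs. RE 40 lie below 0.

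Among the 9 cyclins, Cdk1 and their switches, the medians were 0.08 (E vs. M), −0.57 (M vs. RE) and −0.38 (E vs. RE), and the single genes followed different courses. *Cdc25b*, the phosphatase that starts the activation of cyclin B and Cdk1 at the centrosome, had 107 and 128 ppm in the E libraries, 60.6 and 60.0 in the M libraries and 60.5 and 68.3 in the RE libraries. Both E libraries lay far above the others, and M and RE overlapped. It was lower in M than in E at the 1.5-fold call (log2 fold change −0.96, SE 0.14, adjusted p = 0.00172) and lower in RE than in E at the same call (−0.87, SE 0.14, adjusted p = 0.00481), and it was the only one of the 50 with a positive estimate in M vs. RE, at 0.09. It passed the 2-fold call in E vs. M without the first E library (−1.08) and with library totals (−1.26). *Foxm1*, the transcription factor that drives G2/M genes, had 137 and 191 ppm in the E libraries, 313 and 293 in the M libraries and 150.1 and 189.5 in the RE libraries. The M libraries stood well above the rest, and the RE values fell inside the range of E. The rise in E vs. M passed the 1.5-fold call (log2 fold change 0.91, SE 0.19, adjusted p = 0.00832), M vs. RE did not (−0.84, SE 0.19, adjusted p = 0.0146), and E vs. RE gave 0.06, SE 0.19, adjusted p = 0.824, with an estimate of −0.031 instead with library totals. Without the second E library the E vs. M estimate was 1.13 and passed the 2-fold call. *Ccnb1* had 7.03 and 5.61 ppm in the E libraries, 10.4 and 12.005 in the M libraries and 5.43 and 7.57 in the RE libraries. It too was highest in both M libraries, with E and RE overlapping, at log2 fold changes of 0.82, SE 0.22, adjusted p = 0.0226 in E vs. M (0.86 and called at 1.5-fold after correction for GC content and transcript length), −0.79, SE 0.22, adjusted p = 0.0328 in M vs. RE and 0.03, SE 0.22, adjusted p = 0.93 in E vs. RE, where library totals gave −0.064. *Cks2* had 1.43 and 0.799 ppm in the E libraries, 2.04 and 2.69 in the M libraries and 1.21 and 1.19 in the RE libraries. These are low levels, highest in M, and the difference of E vs. M (log2 fold change 1.06, SE 0.32, adjusted p = 0.0316) was over 2-fold without passing the adjusted p, other than without the first E library (1.44) and after correction for GC content and transcript length (1.43), where it was called.

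The levels of the B-type cyclins ran in different orders, but whether these genes differ was not tested, and the coverage of *Ccnb1* is uncertain. *Ccnb2*, cyclin B2, had 84.5 and 62.8 ppm in the E libraries, 61.7 and 58.0 in the M libraries and 44.2 and 49.9 in the RE libraries, which put both M libraries below both E libraries and RE lowest (log2 fold change in E vs. RE −0.63, SE 0.17, adjusted p = 0.0289). *Cdk1*, the kinase itself, had 341 and 201 ppm in the E libraries, 309 and 248 in the M libraries and 152 and 172 in the RE libraries. The RE libraries lay below all the others, but the E libraries differed so much that both M libraries fell between them. Its log2 fold change was 0.08, SE 0.25, adjusted p = 0.812 in E vs. M, where library totals turned it to −0.22, −0.78, SE 0.25, adjusted p = 0.0487 in M vs. RE and −0.69, SE 0.25, adjusted p = 0.0699 in E vs. RE. Without the second E library the last of these was −1.07 and passed the 2-fold call. The other genes here, *Ccna2*, *Cks1b* and *Cdc25c*, had log2 fold changes between 0.05 and 0.57 in E vs. M and between −0.57 and −0.43 in M vs. RE, and none of them passed a call.

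The mitotic kinases, the chromosomal passenger genes and *Cdca3*, 8 genes in all, were nearly level between E and M (median 0.10). They were lower in RE (median −0.52 against M and −0.46 against E). Polo-like kinase 1, *Plk1*, which acts at centrosomes, kinetochores and the central spindle, had 124 and 111 ppm in the E libraries, 157 and 139 in the M libraries and 74.97 and 95.8 in the RE libraries. The stages did not overlap and ran RE, E, M, and the fall from M to RE passed the 1.5-fold call (log2 fold change −0.80, SE 0.16, adjusted p = 0.008), while E vs. M (0.34, SE 0.16, adjusted p = 0.129) and E vs. RE (−0.47, SE 0.16, adjusted p = 0.0615) did not. *Aurka*, the Aurora kinase of the spindle poles, had 132 and 103 ppm in the E libraries, 151 and 139 in the M libraries and 78.0 and 95.4 in the RE libraries, the same order without overlap. Its log2 fold change was 0.31, SE 0.17, adjusted p = 0.178 in E vs. M, −0.75, SE 0.17, adjusted p = 0.0142 in M vs. RE and −0.44, SE 0.17, adjusted p = 0.0905 in E vs. RE. *Aurkb*, the Aurora kinase of the chromosomal passenger complex, had 93.6 and 67.8 ppm in the E libraries, 81.3 and 73.2 in the M libraries and 52.2 and 61.9 in the RE libraries. Here the M values lay within the E range and RE was below both, with −0.05, SE 0.18, adjusted p = 0.859 in E vs. M, −0.44, SE 0.18, adjusted p = 0.11 in M vs. RE and −0.49, SE 0.18, adjusted p = 0.0831 in E vs. RE.

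Its partners in the passenger complex, which corrects faulty attachments, showed the same low in RE. *Incenp*, the scaffold, had 320.5 and 322 ppm in the E libraries, 358 and 352 in the M libraries and 212 and 259.8 in the RE libraries, with a log2 fold change in E vs. RE of −0.45, SE 0.14, adjusted p = 0.0482. *Cdca8*, borealin, had 103 and 83.5 ppm in the E libraries, 100.4 and 93.1 in the M libraries and 56.6 and 66.4 in the RE libraries, and −0.60, SE 0.16, adjusted p = 0.0261 in the same comparison. Neither passed a call, although RE lay below E and M in both libraries of both genes. *Nek2*, a kinase that separates the centrosomes, had 65.8 and 63.3 ppm in the E libraries, 91.5 and 85.0 in the M libraries and 59.5 and 70.0 in the RE libraries. It was highest in M (0.45, SE 0.14, adjusted p = 0.033 in E vs. M), and the E values lay between those of RE. *Birc5* (survivin) and *Cdca3* had negative estimates in E vs. M, −0.12 and −0.35, and were lower in RE than in M by estimates of −0.40 and −0.07, without a call.

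The spindle checkpoint and anaphase-promoting complex, 8 genes, had medians of 0.05 (E vs. M), −0.54 (M vs. RE) and −0.52 (E vs. RE). Both RE libraries lay below both M libraries in all 8 (100%, background 40.2%). *Bub1*, the checkpoint kinase of the kinetochore, had 189 and 123 ppm in the E libraries, 234 and 192 in the M libraries and 93.7 and 112 in the RE libraries. The stages were separate in the order RE, E, M. Its log2 fold change in M vs. RE was −1.05, SE 0.22, adjusted p = 0.0104, over 2-fold and just outside the adjusted p of the call, and it was called when only the M and RE libraries were fitted, with weighted libraries, and when the first or the second E library was left out. *Bub1b*, which encodes BubR1, an inhibitor of the anaphase-promoting complex, had 141 and 104 ppm in the E libraries, 192 and 162 in the M libraries and 104 and 129 in the RE libraries. M was highest and E and RE overlapped, at 0.54, SE 0.19, adjusted p = 0.0573 in E vs. M. The activating subunit *Cdc20* had 98.0 and 78.6 ppm in the E libraries, 78.6 and 70.2 in the M libraries and 54.6 and 63.9 in the RE libraries, and the ubiquitin-conjugating enzyme *Ube2c*, which works with the complex, had 185 and 139 ppm in the E libraries, 151 and 130.4 in the M libraries and 71.8 and 90.7 in the RE libraries. Both were below E and M in both RE libraries, with M no higher than the first E library. *Ube2c* passed the 1.5-fold call in E vs. RE (log2 fold change −0.99, SE 0.19, adjusted p = 0.00803) and the 2-fold call with library totals (−1.09) or without the second E library (−1.19), and *Cdc20* passed neither (−0.57, SE 0.16, adjusted p = 0.0339). The other genes, *Bub3*, *Mad2l1*, *Ttk* and *Pttg1* (securin), had estimates between −0.12 and 0.10 in E vs. M, between −0.57 and −0.15 in M vs. RE and between −0.64 and −0.07 in E vs. RE.

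All 5 centromere and kinetochore genes had a positive estimate in E vs. M (median 0.44) and a negative one in M vs. RE (median −0.69). *Cenpe*, the kinesin that carries chromosomes to the metaphase plate, had 296 and 278 ppm in the E libraries, 403 and 375 in the M libraries and 200.3 and 234 in the RE libraries. The stages were separate, RE lowest and M highest, and the fall in M vs. RE passed the 1.5-fold call (log2 fold change −0.85, SE 0.14, adjusted p = 0.00332), while E vs. RE gave −0.41, SE 0.14, adjusted p = 0.0605, and after correction for GC content and transcript length −0.84, which passed that call (adjusted p = 0.00498). *Cenpf*, a large kinetochore protein, had 322 and 278 ppm in the E libraries, 421 and 415 in the M libraries and 303 and 325 in the RE libraries. M was again highest but RE overlapped with E (0.48, SE 0.14, adjusted p = 0.0256 in E vs. M, and −0.068 after that correction). *Ndc80* and *Nuf2* encode partners in the complex that holds the microtubule ends, and whether their transcripts differ in course was not tested. *Ndc80* had 127 and 93.7 ppm in the E libraries, 121 and 113 in the M libraries and 65.2 and 77.8 in the RE libraries, with M inside the E range and RE lowest (−0.62, SE 0.18, adjusted p = 0.0363 in E vs. RE). *Nuf2* had 125 and 73.7 ppm in the E libraries, 146 and 133 in the M libraries and 77.4 and 96.0 in the RE libraries, with M highest and RE inside the E range (0.54, SE 0.24, adjusted p = 0.113 in E vs. M). *Cenpa*, the centromeric histone, had estimates of −0.49 in M vs. RE, −0.48 in E vs. RE and 0.02 in E vs. M.

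The 11 spindle motors and microtubule-binding proteins had medians of 0.34, −0.48 and −0.32 in the 3 comparisons in the same order. *Gtse1*, a microtubule-binding protein of G2 that also restrains p53, had 125 and 104 ppm in the E libraries, 125 and 113 in the M libraries and 50.1 and 65.1 in the RE libraries. Both RE libraries were far below all the others, and the M values lay inside the E range. *Gtse1* fell by more than 2-fold in M vs. RE (log2 fold change −1.06, SE 0.17, adjusted p = 0.00318) and in E vs. RE (−1.002, SE 0.17, adjusted p = 0.00552). Both estimates lie close to the 2-fold bar. The first was no longer called with library totals (−0.85) or without any 1 of the M or RE libraries (−0.87 to −1.25). The second was no longer called with median-of-ratios scaling or a pseudocount of 1 (−0.99 in both), when only the E and RE libraries were fitted (adjusted p = 0.0235), after correction for GC content and transcript length (−0.89), or without the first E library or any 1 of the M or RE libraries (−0.81 to −1.19).

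*Ckap5*, which speeds the growth of microtubules, was one of the few genes with a positive estimate in E vs. RE, at 0.33. It had 270.3 and 296 ppm in the E libraries, 523 and 470.0 in the M libraries and 345 and 368 in the RE libraries, with no overlap in the order E, RE, M. The rise in E vs. M passed the 1.5-fold call (log2 fold change 0.81, SE 0.14, adjusted p = 0.00293), but not after correction for GC content and transcript length (0.38, adjusted p = 0.0286). *Kif4*, a chromosome-bound kinesin, had 99.96 and 87.5 ppm in the E libraries, 173 and 149 in the M libraries and 95.9 and 109 in the RE libraries. It was highest in M, with E and RE overlapping, and the rise in E vs. M passed the 1.5-fold call (0.78, SE 0.15, adjusted p = 0.00477), which M vs. RE did not (−0.66, SE 0.15, adjusted p = 0.0129). After the same correction the E vs. M estimate of *Kif4* was 0.52 and not called (adjusted p = 0.0294). *Kif2c*, a kinesin that takes microtubules apart at the centromere, had 69.8 and 68.8 ppm in the E libraries, 96.2 and 84.9 in the M libraries and 49.3 and 55.9 in the RE libraries. The stages were separate, RE lowest, and M vs. RE passed the 1.5-fold call (−0.78, SE 0.14, adjusted p = 0.0044), while E vs. RE gave −0.40, SE 0.14, adjusted p = 0.0606. *Hmmr*, a spindle-pole protein, had 126 and 109 ppm in the E libraries, 176 and 162 in the M libraries and 124 and 134 in the RE libraries, highest in M with E and RE overlapping (0.52, SE 0.14, adjusted p = 0.0184 in E vs. M). The other 6 genes, *Kif11*, *Kif20b*, *Tpx2*, *Nusap1*, *Dlgap5* and *Ckap2*, had estimates between −0.21 and 0.36 in E vs. M, between −0.69 and −0.12 in M vs. RE and between −0.40 and −0.06 in E vs. RE, and none was called.

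On the TMM scale, the 5 central spindle and cytokinesis genes lay higher in both M libraries than in any other library. Among all genes, both M libraries were above both E libraries in 35.5% and above both RE libraries in 40.2%. The medians of the 5 genes were 0.39 (E vs. M), −0.75 (M vs. RE) and −0.11 (E vs. RE). *Prc1*, which bundles the microtubules of the central spindle, had 99.6 and 101 ppm in the E libraries, 173 and 167 in the M libraries and 87.0 and 99.4 in the RE libraries. The E and RE values nearly met, and both E vs. M (log2 fold change 0.76, SE 0.13, adjusted p = 0.00296) and M vs. RE (−0.87, SE 0.13, adjusted p = 0.00208) passed the 1.5-fold call. *Racgap1*, the central-spindle partner of the kinesin Kif23, had 192 and 169 ppm in the E libraries, 308 and 306 in the M libraries and 171 and 193 in the RE libraries. It also passed that call both ways (0.77, SE 0.14, adjusted p = 0.00362 and −0.75, SE 0.14, adjusted p = 0.00507), with E and RE overlapping. *Kif23* had 229.5 and 190.2 ppm in the E libraries, 288 and 259 in the M libraries and 144 and 168 in the RE libraries, with separate stages and RE lowest, and passed the 1.5-fold call in M vs. RE (−0.81, SE 0.15, adjusted p = 0.00679). *Ect2*, the exchange factor that activates RhoA at the cleavage site, and *Anln* (anillin) had estimates of 0.22 and 0.29 in E vs. M and of −0.36 and −0.39 in M vs. RE, without a call.

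Of the 4 genes of chromosome structure, *Top2a* and *Mki67* are the usual markers of proliferating cells, and the order of the stages differed between them. *Top2a* had 1272 and 1141 ppm in the E libraries, 1819.9 and 1585 in the M libraries and 876 and 989.9 in the RE libraries. The order was RE, E, M without overlap, and the fall from M to RE passed the 1.5-fold call (log2 fold change −0.87, SE 0.16, adjusted p = 0.006), while E vs. M gave 0.50, SE 0.16, adjusted p = 0.0422 and E vs. RE −0.37, SE 0.16, adjusted p = 0.118. *Mki67*, which encodes the Ki-67 protein that coats mitotic chromosomes, had 745 and 798 ppm in the E libraries, 1242 and 1228 in the M libraries and 852 and 954 in the RE libraries. The order was E, RE, M without overlap, so that RE cells had less *Top2a* but more *Mki67* than E cells in both libraries. The rise in E vs. M passed the 1.5-fold call (0.68, SE 0.14, adjusted p = 0.00813), M vs. RE did not (−0.45, SE 0.14, adjusted p = 0.0477), and E vs. RE gave 0.23, SE 0.14, adjusted p = 0.267. Once the trends of coverage on GC content and transcript length had been removed within libraries, *Mki67* was no longer called in E vs. M (0.16, adjusted p = 0.474) and its E vs. RE estimate turned to −0.21. *Top2a* then stood at 0.17 in E vs. M, and its E vs. RE estimate of −0.68 passed the 1.5-fold call (adjusted p = 0.0085). Whether the 2 genes differ in their change from E to RE was not tested. *Smc4* and *Ncapd2*, condensin subunits, had estimates of 0.32 and 0.30 in E vs. M and of −0.51 and −0.39 in M vs. RE, without a call.

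**Figure D4:**
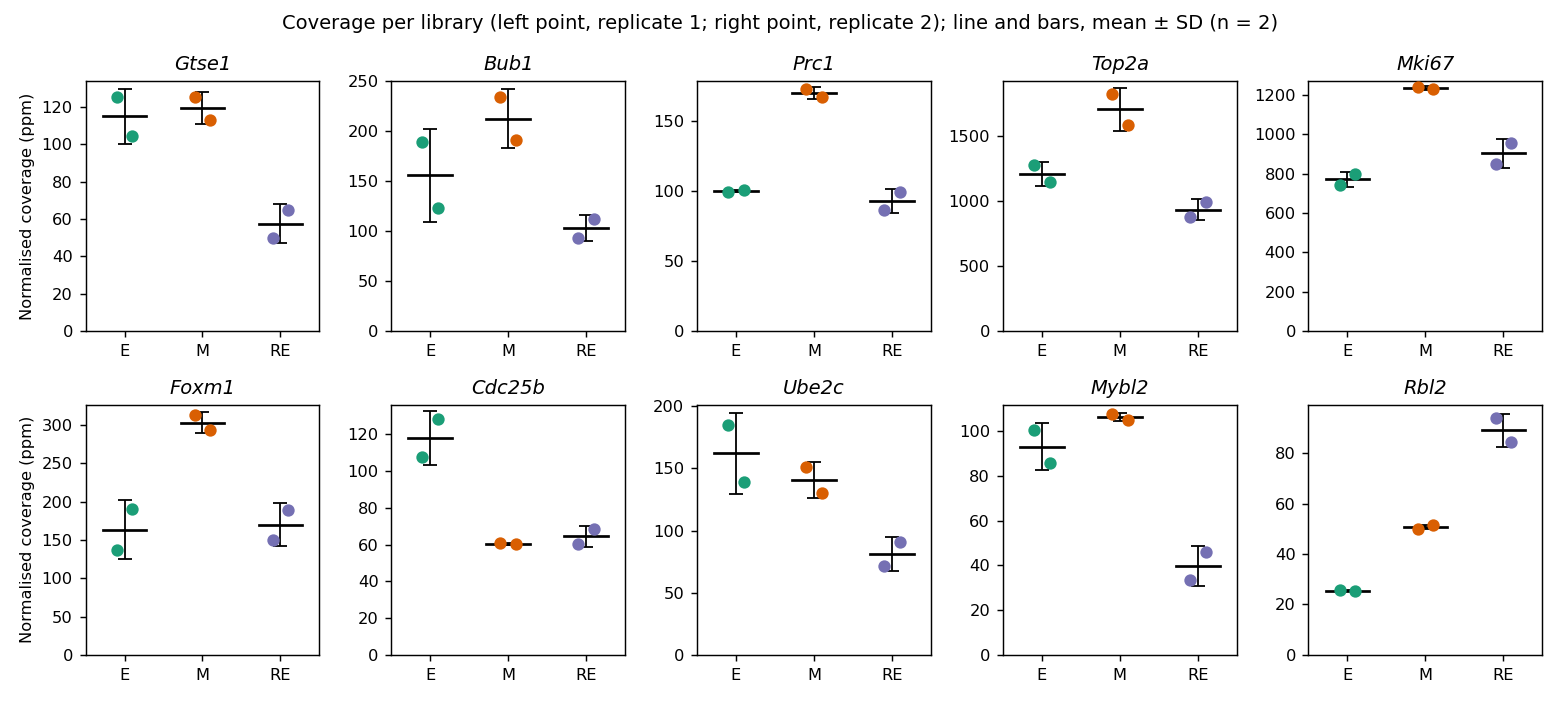
Coverage (ppm) of *Gtse1*, *Bub1*, *Prc1*, *Top2a*, *Mki67*, *Foxm1*, *Cdc25b*, *Ube2c*, *Mybl2* and *Rbl2* in each of the 6 libraries, with a line for the mean of each stage and bars for its SD (n = 2). *Gtse1* and *Mybl2* are lowest in both RE libraries, *Cdc25b* is highest in both E libraries, and *Rbl2* is higher in both M libraries than in E and highest in RE.

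The genes with and without the CHR letters had similar medians. The 30 genes with the CHR letters had a median log2 fold change of −0.55 in M vs. RE, and the 12 without had −0.60. In E vs. M the medians were 0.31 and 0.25, and in E vs. RE both were −0.39. By the CCAAT letters, the 33 genes with them had a median of 0.34 in E vs. M, and the 9 without had 0.09. The medians of these groups were −0.57 and −0.51 in M vs. RE and −0.40 and −0.38 in E vs. RE. Whether the groups differ was not tested. *Gtse1* and *Cdc25b*, the genes without the CHR letters whose windows are printed, lie at the lowest and the highest estimate of M vs. RE among the 42 genes with a window.

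The regulators of such promoters, 12 genes of the DREAM and MuvB complexes and their partners, include 2 genes that were called. *Mybl2*, B-Myb, which joins the complex to activate G2/M genes, had 101 and 85.6 ppm in the E libraries, 108 and 105 in the M libraries and 33.4 and 46.0 in the RE libraries. It fell by more than 2-fold in RE, with log2 fold changes of −1.44, SE 0.18, adjusted p = 0.000939 in M vs. RE and −1.24, SE 0.18, adjusted p = 0.00292 in E vs. RE. *Rbl2*, the p130 protein of the repressive DREAM complex in resting cells, had 25.6 and 25.3 ppm in the E libraries, 50.1 and 51.4 in the M libraries and 93.7 and 84.5 in the RE libraries. It was higher in RE than in E by 1.801, SE 0.13, adjusted p = 0.000331. The other 10 were not called at 2-fold in any comparison. In M vs. RE 1 of the 12 was called lower (8.33%, background 4.79%). In E vs. RE 1 was called higher (8.33%, background 6.20%) and 1 lower (8.33%, background 3.17%). At 1.5-fold, 2 were called higher in E vs. M (16.7%, background 12.7%). In M vs. RE 1 was higher (8.33%, background 9.45%) and 2 were lower (16.7%, background 7.08%) at that bar. In E vs. M none of the 12 was called (6 were higher and 2 lower at an unadjusted p below 0.05, or 50% and 16.7%, against 25.9% and 25.1% of all genes), and the medians were 0.33, −0.45 and −0.11.

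A wider list of 92 other mitosis genes, 90 of them in the table and tested, is given beside the 50. Its medians were 0.04 (E vs. M), −0.47 (M vs. RE) and −0.37 (E vs. RE). In M vs. RE none was called at 2-fold, 43 were lower (47.8%, against 20.7% of all genes) and 0 higher at an unadjusted p below 0.05, and 9 were called lower at 1.5-fold (10%, background 7.08%). In E vs. M, 3 were called higher (3.33%, background 8.58%), among them *Mastl*, the Greatwall kinase that protects mitotic phosphorylation (log2 fold change 1.21, SE 0.13, adjusted p = 0.00046), and *Cdc27*, a subunit of the anaphase-promoting complex (1.02, SE 0.13, adjusted p = 0.000844). The other 3 called were lower (3.33%, background 8.39%), *Psrc1* (−1.63, SE 0.21, adjusted p = 0.000967), *Itgb3bp* (−1.61, SE 0.33, adjusted p = 0.00696) and *Knstrn* (−1.07, SE 0.17, adjusted p = 0.00258), which act at the spindle or the kinetochore. In E vs. RE 2 were called lower (2.22%, background 3.17%), including *Psrc1* (−1.23, SE 0.21, adjusted p = 0.00569). At an unadjusted p below 0.05, 41 of the 90 were lower there (45.6%, against 19.7% of all genes) and 4 higher (4.44%, against 23.7%).

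The 50 S-phase genes, which serve DNA replication, had the same signs. Their medians were 0.17 (E vs. M), −0.64 (M vs. RE) and −0.33 (E vs. RE). Of their 50 estimates of M vs. RE, 49 were below 0 (98%, against 51.2% of all genes). At an unadjusted p below 0.05, 35 were lower in M vs. RE (70%, against 20.7% of all genes) and 0 higher. In E vs. RE 19 were lower at that p (38%, against 19.7%) and 1 higher (2%, against 23.7%). At 2-fold, *Dtl*, which helps to degrade the replication licensing factor Cdt1, was called higher in M than in E (1.07, SE 0.15, adjusted p = 0.00117), 2% of the list against a background of 8.58%. *Cdc45*, part of the replicative helicase, was called lower in RE than in M (−1.16, SE 0.15, adjusted p = 0.00101), 2% against 4.79%, and 2 genes were called lower in RE than in E (4%, background 3.17%), including the clamp loader subunit *Rfc4* (−1.14, SE 0.16, adjusted p = 0.00283).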

How the data were processed

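RNA of E, M and RE stages of EpH4 cells (2 biological replicates each, per the labels) was sequenced with reads of 50 bases. Uniquely placed reads had been mapped by the authors (Bowtie, TopHat2). The deposited values, in 1 table, are coverage (signal) in bases per gene symbol, without normalization. Between 44.8% and 48.4% of its values from 1 to 400 are multiples of 50. The summing step and its annotation are not given in the sources used here, and edgeR, named by the authors, needs counts and was not run. Depth was 35782513 to 47928557 reads' worth per library, so the 2 libraries per stage limit the precision more than depth does.

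Coverage was scaled by TMM without weights (trimming 30% of the log ratios and 5% of the mean levels from either end) in R 4.3.3 and fitted with limma 3.58.1 (trend, empirical Bayes, all 6 libraries, group only) on log2(ppm + 0.1), a scale that understates changes of low genes, for 13893 genes that reached 500 bases in 2 or more libraries. P-values were adjusted by Benjamini-Hochberg. The fit was tested on simulated data. SE is the moderated standard error.

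The 50 genes and the lists of other mitosis, DREAM, S-phase and marker genes were chosen with earlier results of these data known. Genes given in full are the 12 with the smallest adjusted p in each comparison, the largest change of each role in E vs. M, and 8 set by name (*Mki67*, *Foxm1*, *Ccnb1*, *Cdk1*, *Plk1*, *Aurka*, *Aurkb*, *Top2a*). Of the other lists, called genes were named, at most 3 in each direction per comparison.

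Transcript lengths, GC content and shared 50-base windows came from the GENCODE M21 transcripts, which are newer than the authors' build (length and GC for 12973 genes tested, 93.4%), and promoters from RefSeq. Alternatives were other scalings, filters, pseudocounts, thresholds, samples, a replicate block, array weights and leaving out each library. A correction for trends on GC content and transcript length within libraries, alone or together with the block, was added after seeing the data.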

Additional observations from a re-analysis of the deposited data

How the results depend on the processing

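The threshold of 1.5-fold gave 6 genes higher and 1 lower in E vs. M, 8 lower in M vs. RE and 3 lower in E vs. RE, and an adjusted p of 0.05 gave 1 higher in E vs. M and 2 lower in M vs. RE, against 0 and 0, 1 and 1 as reported. Library totals gave 1 lower in E vs. M (*Cdc25b*), 0 in M vs. RE and 2 lower in E vs. RE, and medians of 0.0064 in E vs. M and −0.34 in M vs. RE. Fitting only the groups compared gave 2 lower in M vs. RE and 0 lower in E vs. RE, array weights 2 in M vs. RE, and median-of-ratios scaling and a pseudocount of 1 each 0 in E vs. RE. Removal of the GC and length trend, with or without the replicate block, gave 1 higher in E vs. M, 2 lower in M vs. RE and 0 lower in E vs. RE. Leaving out 1 library gave 0 to 1 higher and 0 to 1 lower in E vs. M, 0 to 2 lower in M vs. RE and 0 to 4 in E vs. RE, with medians of 0.13 to 0.40, −0.65 to −0.44 and −0.51 to −0.16, the last without the first E library. The causes were not tested.

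Single estimates that turned sign, none of them called, were in E vs. M *Cenpf* (−0.068 after removal of the GC and length trend), *Cdk1* (−0.22 with library totals, −0.12 after that removal, −0.32 to 0.46 leaving out 1 library) and *Aurkb* (0.16 after removal, −0.30 to 0.19), and in E vs. RE *Mki67* (−0.21 after removal), *Foxm1* (−0.031 with library totals, −0.11 after removal, −0.18 to 0.31) and *Ccnb1* (−0.064 with library totals, −0.21 to 0.27).

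The libraries of the stages share replicate numbers, but no label says that a number marks a shared batch. The deviations of same-numbered libraries correlated over genes at 0.27 for E and M, 0.12 for M and RE and 0.06 for E and RE, and the numbers were not taken as a pairing. With the replicate block 0 genes were called in E vs. M, 1 lower in M vs. RE and 1 lower in E vs. RE, as without it, and at 1.5-fold 5 higher and 1 lower, 5 lower and 2 lower. Between the 2 libraries of a stage the median log2 level of the 50 genes had a pooled SD of 0.177, and differences of that size between stages cannot be resolved here.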
